A study of Mus musculus with 23 samples.

Results

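The wild-type retina measured here is 3 of the 23 samples of a mouse series, the 3 wild-type samples of its second profiling set. They were chosen by their labels and are described as a miRNA abundance profile with no genotype comparison. The labels give retina, a mixed background strain, a wild-type genotype with no engineered allele, fresh primary cells and no treatment. Age, sex and litter are not given, nor whether each sample came from its own animal. Total RNA was assayed for 522 miRNA assays by stem-loop RT-qPCR, in which a primer specific to each miRNA starts reverse transcription, followed by 14 cycles of pre-amplification. A further 3 wild-type samples of the first profiling set, labelled with the same tissue, strain background and genotype, serve only as a check of the ranking. The series as a whole asks how the miR-17~92 cluster bears on retinoblastoma in mice that lose Rb and p53. By their labels, its other samples lose Rb and p107, with or without p53 or Dicer1, or lose Dicer1 alone.

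MicroRNAs are cut from hairpin precursors, and each hairpin can give a mature miRNA from its 5′ arm (-5p) and from its 3′ arm (-3p). Usually the strand that pairs less firmly at its 5′ end is loaded into an Argonaute protein, which often prefers a 5′ uridine, and the other strand is degraded. The loaded miRNA represses messages that match its seed, bases 2 to 8. In the retina the miR-183, miR-96 and miR-182 cluster is known from photoreceptors, miR-124 and miR-9 from neurons and their progenitors, and miR-204 from pigment epithelium, ciliary body, lens and Müller glia. Starred minor arms are written here with # (miR-9#), as in the deposited table.

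Values are quantification cycles (Cq), a reversed scale on which a lower value means more template and 1 cycle is close to a doubling. An assay was called detected at a Cq of 32 or lower. Cq compares 2 assays only as far as they amplify equally well, and no calibration was given, so ranks between assays are approximate.

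The profile was led by a pair of near-identical miRNAs, by miR-9 and by the let-7 family. The mature sequences of these and of the sensory miRNAs are shown because most of the measured quantity fell to a few seeds. They are from RefSeq, build GRCm38.p6, written 5′ to 3′ with the seed in capitals.
miR-204: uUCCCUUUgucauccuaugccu
miR-211: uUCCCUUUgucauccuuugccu
miR-9: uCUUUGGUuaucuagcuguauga
miR-9#: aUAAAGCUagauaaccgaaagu
miR-30c: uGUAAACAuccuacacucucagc
miR-182: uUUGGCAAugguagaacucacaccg
miR-183: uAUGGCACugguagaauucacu
miR-96: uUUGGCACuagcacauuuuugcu
let-7e: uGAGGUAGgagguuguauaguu
let-7c: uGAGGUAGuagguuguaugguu
let-7b: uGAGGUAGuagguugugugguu
let-7a: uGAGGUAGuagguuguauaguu
let-7f: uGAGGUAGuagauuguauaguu

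Of the 522 assays, 318 were matched to a RefSeq mature sequence by name and arm, among them 202 of the assays detected in all 3 samples and 18 of the 20 highest ranked. MiR-204 and miR-211 differ at 1 of 22 positions, outside the seed. Let-7a differs from let-7c, let-7e and let-7f at 1 of 22 positions each. How far assays of such close relatives read each other was not tested.

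Detection was much the same in the 3 samples, and about 6 in 10 assays gave a signal. Samples 1, 2 and 3 had 320, 318 and 307 assays detected, which is 61.3%, 60.9% and 58.8% of 522. In all 3 samples 303 assays were detected (58.0%), in 2 samples 13, in 1 sample 10 and in none 196. Of those 196, 174 were undetermined in every sample and 22 had values above Cq 32 only. Assays with a plain name were detected in all 3 samples in 193 of 316 cases, starred arms in 58 of 103 and assays named by -3p or -5p in 52 of 103. Just inside the limit lay miR-873 at 30.4, 31.8 and 31.3 and miR-470# at 31.0, 30.8 and 31.7. Just outside it lay miR-300# at 31.5, 31.5 and 32.2.

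The 303 assays spanned 16.3 cycles, from a mean Cq of 14.9 for miR-204 to 31.2 for miR-873. By mean Cq, 43 assays lay below 20, 91 from 20 to 24, 131 from 24 to 28 and 38 at 28 or above. If each cycle is a doubling, the summed quantity (2 to the power of minus Cq) was held by few assays. MiR-204 alone held 15.99% ± 0.81 (SD, n = 3) of it, the 3 highest ranked 27.9% ± 0.64, the 10 highest 53.4% ± 1.09 and the 50 highest 88.9% ± 0.26. In each of the 3 samples 9 assays made up the first 50% of the sum, and 53 or 54 made up 90%.

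**Figure D1:**
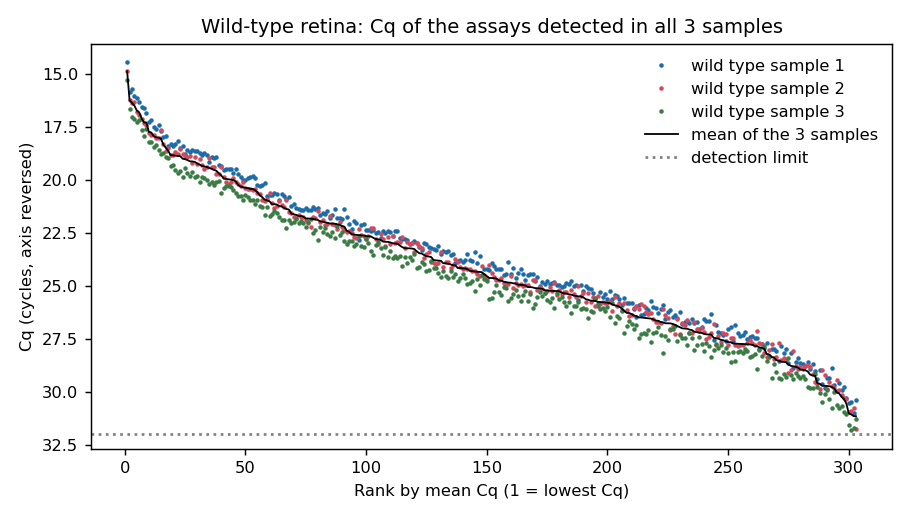
Cq in cycles (reversed axis, so more template is higher) against rank by mean Cq for the 303 assays detected in all 3 wild-type samples; points are samples, the line is their mean and the dotted line is the detection limit of 32. Sample 1 lies mostly above and sample 3 mostly below the line, and the curve falls steeply over the first 20 ranks.

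MiR-204 stood first in all 3 samples, at Cq 14.5, 14.9 and 15.3, and was 1.36 cycles ahead of the next assay. MiR-211, which shares its seed, was at 15.7, 16.4 and 17.0 (rank 3). The 2 together held 21.7% of the summed quantity, the largest share of any seed among matched assays. Within each sample miR-211 came 1.27, 1.48 and 1.72 cycles after miR-204. The hairpin of miR-204 lies at chr19:22750605-22750672 (plus strand) within the span of Trpm3, and that of miR-211 at chr7:64205806-64205911 (plus strand) within the span of Trpm1. Trpm1 encodes the channel that ON bipolar cells use for light responses and is also expressed in pigment cells.

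MiR-9, a regulator of neural progenitors, was at 15.9, 16.2 and 16.7 (rank 2). Its other arm miR-9# was at 17.7, 17.6 and 18.8 (rank 15), the only starred assay among the first 20. Both come from 3 hairpins, on chromosomes 3, 7 and 13, and the assays cannot tell which of them contributed. MiR-709 (rank 4) was at 16.1, 16.3 and 17.1.

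MiR-182, with miR-183 and miR-96 part of the photoreceptor cluster, was at 16.3, 17.0 and 17.2 (rank 6). MiR-183 was at 18.3, 18.7 and 19.6 (rank 21) and miR-96 at 19.9, 20.3 and 20.8 (rank 48). In every sample the order was miR-182, then miR-183, then miR-96, with a span of 3.49 cycles between the means. All 3 lie on the minus strand of chromosome 6 inside the long noncoding RNA gene Mirc35hg, between 30165962 and 30169732. Together the 3 unstarred assays held 5.56% of the summed quantity.

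The let-7 family, which promotes differentiation and represses Lin28 and Ras messages, had 8 of 9 unstarred members detected and 5 among the first 20 assays. Let-7e was lowest in Cq at 16.6, 17.1 and 17.6 (rank 7), and let-7f was the highest of the detected members at 20.8, 21.3 and 21.9 (rank 66). MiR-98, which has a let-7 seed, was undetermined in all 3 samples. The 8 detected members share 1 seed and held 11.8% of the summed quantity. Let-7a and let-7d could not be ordered, since let-7d came 0.08 cycles later in sample 1 and 0.06 earlier in sample 3. Let-7f came 2.46, 2.46 and 2.56 cycles after let-7a, a gap much wider than its range over samples.

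The rest of the first 20 were miR-30c (rank 5), miR-26a (rank 8), miR-125b (rank 10), miR-16 (rank 11), miR-181a (rank 12), miR-191 (rank 13), miR-149 (rank 16), miR-92 (rank 17) and miR-328 (rank 18). MiR-30c was at 16.2, 16.8 and 17.3, and miR-328 at 18.4, 18.5 and 19.0. MiR-92 is a member of miR-17~92, a cluster that promotes proliferation. Neighbours in this order mostly did not differ beyond their spread. Only 6 of the 19 neighbouring pairs stood in the same order in all 3 samples, while 17 assays were among the first 20 in each sample and 23 in at least 1.

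From rank 21 to rank 43 the mean Cq rose by little over 1 cycle, from 18.9 to 19.99. MiR-26b was at 18.2, 18.8 and 19.7 (rank 22) and miR-29a, known to repress collagen messages, at 18.4, 18.8 and 19.9 (rank 24). MiR-484 was at 18.8, 18.9 and 19.4 (rank 25), miR-24 at 18.6, 19.2 and 19.7 (rank 28) and miR-190b at 18.7, 19.03 and 20.1 (rank 31). The brain-enriched miR-384-5p, which has the seed of the miR-30 family, was at 18.8, 19.4 and 20.01 (rank 34). MiR-19b of miR-17~92 was at 18.9, 19.7 and 20.1 (rank 38). In each of these the lowest value was in sample 1 and the highest in sample 3. MiR-720, an entry later withdrawn from miRNA catalogues as a tRNA fragment, was at 19.4, 19.4 and 20.6 (rank 40).

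**Figure D2:**
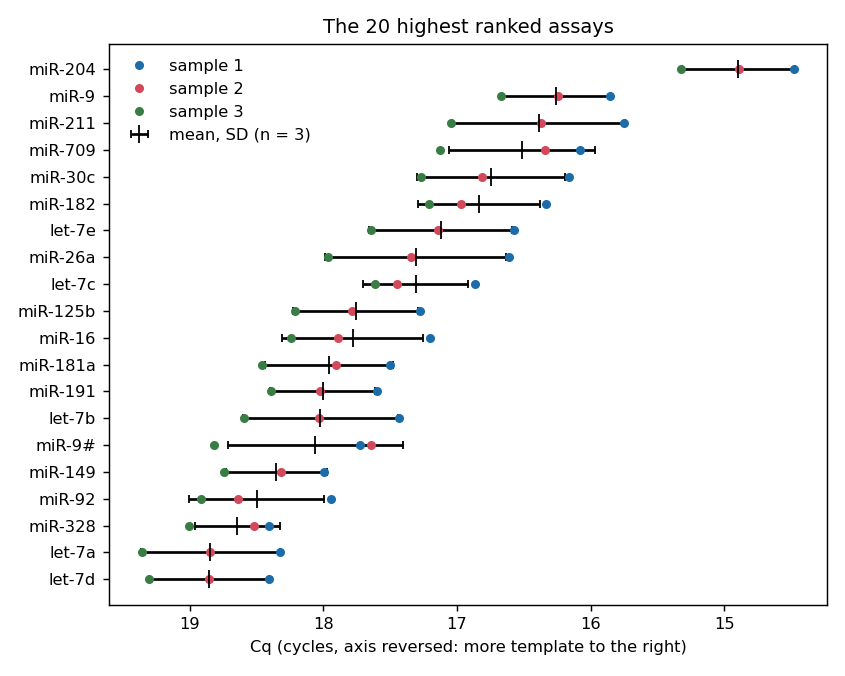
Cq in cycles (reversed axis) of the 20 assays of lowest mean Cq in each of the 3 wild-type samples (coloured points), with mean and SD (black). MiR-204 stands apart at a mean of 14.9 cycles, and from miR-9 down the ranges of neighbours overlap.

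Most assays on the neural list were detected. Of its 13 unstarred assays 11 were detected in all 3 samples, at a median Cq of 19.9. Over the whole panel this held for 61.1% of plain assays and 50.5% of assays named by arm. Every list count is to be read beside these shares, and a count near them says little about a short list. MiR-124a, abundant in differentiated neurons, was at 18.6, 19.0 and 19.9 with one of its assays (number 1182, rank 29) and undetermined in all samples with the other (number 446). MiR-138 (19.2, rank 30), miR-132 (19.5, rank 36), miR-129-3p (19.6, rank 37) and miR-218 (mean 19.9, rank 41) were close to each other, whereas miR-137 was later at a mean of 24.7. MiR-153 passed the limit in sample 1 alone.

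Markers of other tissues in or near the eye were partly present. The list for pigment epithelium, ciliary body and lens had 3 of 3 members detected and held 21.8% of the summed quantity, with miR-184, known from lens and cornea, at 21.4, 22.2 and 21.9 (rank 77). MiR-204 and miR-211 are on that list, and the share of pigment epithelium or lens in the samples was not tested. In bulk tissue, fewer cells of a type and less RNA per cell cannot be told apart.

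Vessel miRNAs were detected in 3 of 3 cases, led by the endothelial miR-126 at 19.5, 20.1 and 20.3 (rank 42). The white blood cell and microglia list had 5 of 6, from miR-150 at a mean of 21.4 (rank 67) to the haematopoietic miR-142-3p at 27.7 (rank 251), and miR-142-5p passed the limit in no sample. The red blood cell list had 1 assay, miR-486, and it was undetermined in all 3 samples. Muscle assays were detected in 4 of 8 cases, from 24.5 (miR-133a, assay number 2246) to 27.7 (miR-133b).

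The epithelial list had 0 of 6 unstarred assays detected in all 3 samples. The plain assays of miR-200a, miR-200b, miR-200c, miR-141 and miR-429 were undetermined throughout, and miR-205 had 31.1 and 31.7 in samples 1 and 3. The liver assay, miR-122, gave 29.4 in sample 1 and no value in the others. On the gut and kidney list 2 of 3 were detected, miR-192 at 24.9 and miR-194 at 25.5. The pancreas and endocrine list had 3 of 4, including miR-375 at 19.9, 20.5 and 21.0 (rank 52), a miRNA of pancreatic islets that is also found in neuroendocrine cells.

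Stem cell miRNAs were mostly not detected. Of 15 unstarred assays of the miR-290 to miR-295 and miR-302 to miR-367 clusters, 0 were detected in all 3 samples. MiR-294 reached 31.7 in sample 1, and miR-292-3p 31.7 in sample 2. The Sfmbt2 cluster had 5 of 15 detected, all between 27.1 and 28.8. The imprinted Dlk1-Dio3 cluster on chromosome 12 had 39 of 54, led by miR-127 at 18.8, 19.5 and 19.9 (rank 33), with a median of 24.96 and a summed share of 2.59%.

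**Figure D3:**
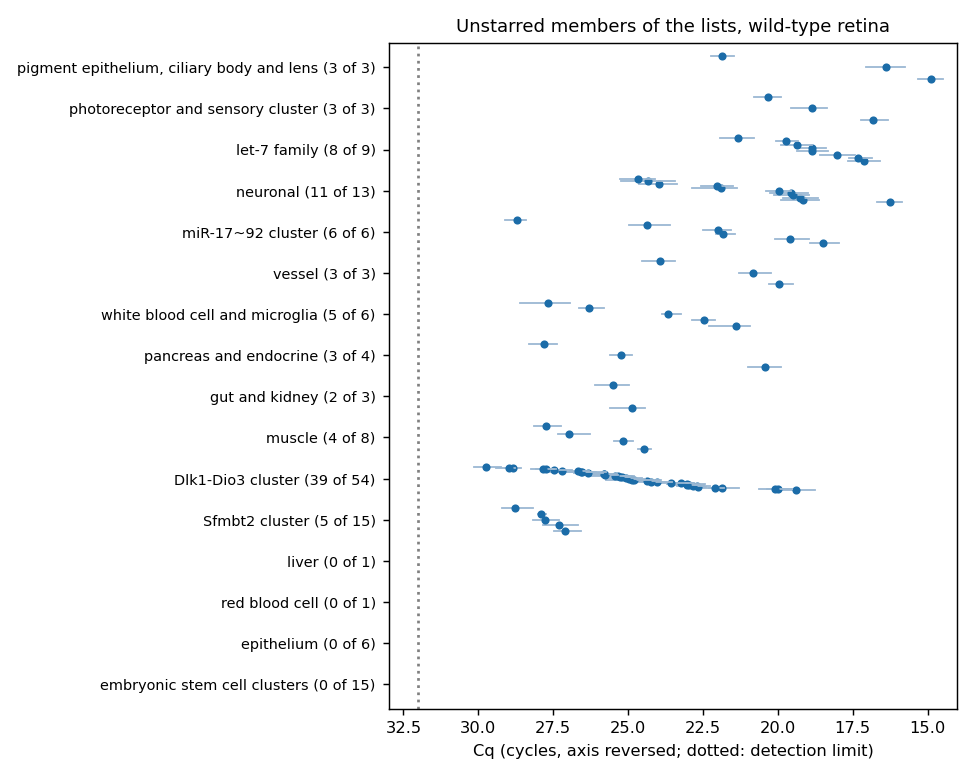
Cq in cycles (reversed axis) of the unstarred assays on 16 lists that were detected in all 3 wild-type samples; points are means, bars the range over the 3 samples, and brackets give detected of all unstarred members. The lens, sensory, let-7, neural, miR-17~92, vessel and Dlk1-Dio3 lists have at least 1 member below Cq 20, and the epithelial, red blood cell, liver and stem cell lists have no point.

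Among other families, the miR-30 family had 6 of 6 unstarred assays detected (16.7 to 21.3), which held 7.53% of the summed quantity. Of these, miR-30e-3p and miR-30a-3p are the other arms of their hairpins, with the seed UUUCAGU, and held 1.70%. The miR-26 family had 2 of 2 (17.3 and 18.9) with 4.03%. The miR-125b, miR-99 and miR-100 group, whose genes lie beside let-7 genes, had 6 of 6 and held 3.87%. For the miR-15/16 family it was 5 of 5 with 2.74%, for the miR-29 family 2 of 2 with 0.94%, and for the miR-181 family 2 of 2 with 1.99%. Of the proliferation-linked clusters, miR-17~92 had 6 of 6 unstarred members, from miR-92 at 18.5 to miR-18a at 28.7. MiR-106b~25 had 3 of 3, from 21.7 to 23.3. The cluster of miR-106a and miR-363 had 2 of 4, miR-106a at 22.0 and miR-20b at 24.7, and miR-18b and miR-363 were undetermined in all samples.

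Assays of one genomic cluster, whose miRNAs are often cut from one transcript, differed widely in Cq. Matched miRNAs on one strand with gaps of at most 10 kb formed 22 clusters with at least 2 unstarred assays, and the lowest and highest mean Cq in a cluster lay a median of 3.20 cycles apart. Assays named -3p or -5p count as unstarred, so both arms of a hairpin can enter a span. The span was below 2 cycles in 5 clusters and 4 or more in 8. In the cluster on chromosome X that holds miR-222 and miR-221, 2 miRNAs of vessels and dividing cells, the span was 1.07 cycles. In the miR-17~92 cluster on chromosome 14 it was 10.2 cycles, and in the cluster of let-7e, miR-99b and miR-125a on chromosome 17, with miR-125a-3p at its high end, 10.6 cycles. The other unstarred assays of the chromosome 17 cluster lay closer, let-7e at a mean of 17.1, miR-125a-5p at 19.99 and miR-99b at 20.4. Several of the clustered miRNAs have further loci, and assay efficiency adds to such spans to an unknown extent.

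The first base also varied along the ranking. Of the 36 matched assays among the first 40, 27 start with U (75%), against 34 of 76 at ranks 41 to 150 (44.7%) and 27 of 90 from rank 151 on (30%). Base composition moved little with it: the median GC content was 45.5%, 47.6% and 48.9% in these groups, and the Spearman correlation of GC content with mean Cq was 0.14 over 202 assays that share the same 3 libraries. Related miRNAs share first bases, so these assays are not independent.

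Arm ratios were compared within each sample, which removes differences in RNA input. The question was which arm of a hairpin had the lower Cq (prevailed), beyond the spread between samples. The arms are read by different assays, and a constant difference in assay efficiency stays in each value. The p-values do not measure it, so a called difference need not be one of abundance. The table held 112 arm pairs. Both arms were detected in all 3 samples in 51 of them, made up of 36 plain and starred pairs and 15 -3p and -5p pairs. In 20 further pairs the plain or -5p arm was detected in all 3 samples and the other arm in none, in 7 it was the reverse, and in 23 neither was detected in any sample. In the remaining 11 an arm was detected in 1 or 2 samples. The starred (or -3p) arm was later in 35 of 51 pairs (68.6%) and earlier in 9 (17.6%), and 7 were not called (limma, two-sided, Benjamini-Hochberg adjusted p under 0.05). A star marks the arm already named as minor, so the direction in plain and starred pairs is partly set by the names. The names -3p and -5p give only the position. The size of the difference was at least 5 cycles in 19 pairs, from 1 to 5 in 22 and below 1 in 10.

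The widest gaps in favour of the plain arm were in let-7g, miR-125b and miR-191. Let-7g# came 10.7, 10.6 and 10.9 cycles after let-7g, a mean of 10.7 ± 0.17 (SE, limma adjusted p = 6.28e-12). MiR-125b# came 10.6 ± 0.23 cycles after miR-125b, and miR-191# 10.4 ± 0.16 after miR-191. The next 7 were let-7i# (8.88), miR-26b# (7.89), miR-138# (7.79), miR-125a-3p (7.75), miR-29a# (7.72), miR-99b# (7.11) and miR-27b# (7.09 cycles). These 10 rare arms lay at mean Cq 26.7 to 30.1.

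The starred arm prevailed in a small group. MiR-376b# differed from miR-376b by −2.89, −3.12 and −2.35 cycles, a mean of −2.79 ± 0.20 (SE, limma adjusted p = 2.81e-07). The difference was −1.49 ± 0.19 cycles for miR-34c# and miR-34c, −0.96 ± 0.20 for miR-29b# and miR-29b, and −0.80 ± 0.18 for miR-674# and miR-674. The means of miR-340# (−0.13 ± 0.17, limma adjusted p = 0.483) and miR-93# (−0.03 ± 0.18, limma adjusted p = 0.855) were also below 0 but did not pass the test. With these, the starred assay had the lower mean Cq in 6 of 36 plain and starred pairs.

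Among -3p and -5p pairs the -5p arm had the lower Cq in 10 of 15. The -3p arm prevailed in 5: miR-434 (−5.71 ± 0.17, SE, limma adjusted p = 3.20e-10), miR-342 (−5.03 ± 0.17), miR-409 (−3.67 ± 0.17), miR-485 (−2.75 ± 0.18) and miR-770 (−1.87 ± 0.18). MiR-434, miR-409 and miR-485, like miR-376b, belong to the Dlk1-Dio3 list, but in the other 4 of its 8 tested pairs (miR-337, miR-369, miR-376a and miR-411) the -5p or plain arm was the earlier, by 1.23 to 4.71 cycles. Star and position differ here: the earlier arm was -5p in miR-376b, whose starred arm prevailed, and -3p in miR-376a, whose plain arm did. MiR-434-3p was at 19.5, 20.1 and 20.6 (rank 46) while miR-434-5p was at a mean of 25.8.

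Some hairpins gave both arms at close to equal Cq. MiR-183# was at 18.7, 18.9 and 19.8 (rank 27), 0.27 ± 0.16 cycles after miR-183 (SE, limma adjusted p = 0.153). MiR-30a-3p came 0.37 ± 0.18 cycles after miR-30a-5p (limma adjusted p = 0.077), a pair in which both arms ranked within the first 35. MiR-9# came 1.81 ± 0.19 cycles after miR-9 (limma adjusted p = 8.10e-06), and miR-126# 2.11 ± 0.18 after miR-126. The other pairs that were not called were miR-18a, miR-130b and miR-362, each with samples on both sides of 0.

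Where the other arm was detected in no sample, the gap is known only as a bound set by the detection limit, if the empty wells were low and had not failed. Let-7b# was undetermined in all 3 samples, at least 13.98 cycles after let-7b, and miR-382#, of the Dlk1-Dio3 list, was also undetermined throughout, with miR-382 at a mean of 20.002. The bound was 11.2 cycles for miR-145#, 10.6 for miR-150#, 10.4 for miR-139-3p, 10.2 for miR-708# and 9.87 for miR-21#, the other arm of the growth-linked miR-21. The 7 reverse cases were miR-141#, miR-142-3p, miR-33a#, miR-470#, miR-501#, miR-503# and miR-879#. MiR-501# was at 25.1, 25.8 and 26.2 and miR-141#, of the epithelial list, at 26.5, 25.96 and 26.9, with the plain assay undetermined in each sample.

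A further 12 pairs could be formed from assays named in other ways, such as a plain name against a -5p or -3p name, and all 12 were called in a fit that added them (limma adjusted p of 2.25e-04 or lower). MiR-129-3p, a brain miRNA, differed from miR-129 by −4.42 ± 0.15 cycles (SE), and miR-30e-3p from miR-30e by −1.61 ± 0.16. The other 10 were later than the plain assay, from miR-532-3p at 1.05 ± 0.15 to miR-125b-1# at 12.6 ± 0.15 cycles. MiR-124# came 4.22, 3.40 and 2.75 cycles after miR-124a (assay number 1182), a wide range over samples.

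The sequences of the lopsided, the reversed and the balanced pairs are set side by side to show their seeds and first bases (RefSeq, GRCm38.p6, seed in capitals).
let-7g: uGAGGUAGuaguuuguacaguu
let-7g#: aCUGUACAggccacugccuugc
miR-191: cAACGGAAucccaaaagcagcug
miR-191#: gCUGCACUuggauuucguuccc
miR-434-3p: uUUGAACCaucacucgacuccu
miR-434-5p: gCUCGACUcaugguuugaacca
miR-376b: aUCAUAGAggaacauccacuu
miR-376b#: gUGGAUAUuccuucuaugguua
miR-183: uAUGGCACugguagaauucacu
miR-183#: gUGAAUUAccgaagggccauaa

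Both arms were matched to sequences in 43 of the 51 pairs. The arm of lower Cq started with U in 22 of the 43, and the arm of higher Cq in 8. It started with A in 9 against 17, with C in 9 against 12 and with G in 3 against 6. By position, the arm of lower Cq was the 5′ arm in 30 pairs and the 3′ arm in 13. In miR-376b, whose starred arm prevailed, neither arm starts with U.

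**Figure D4:**
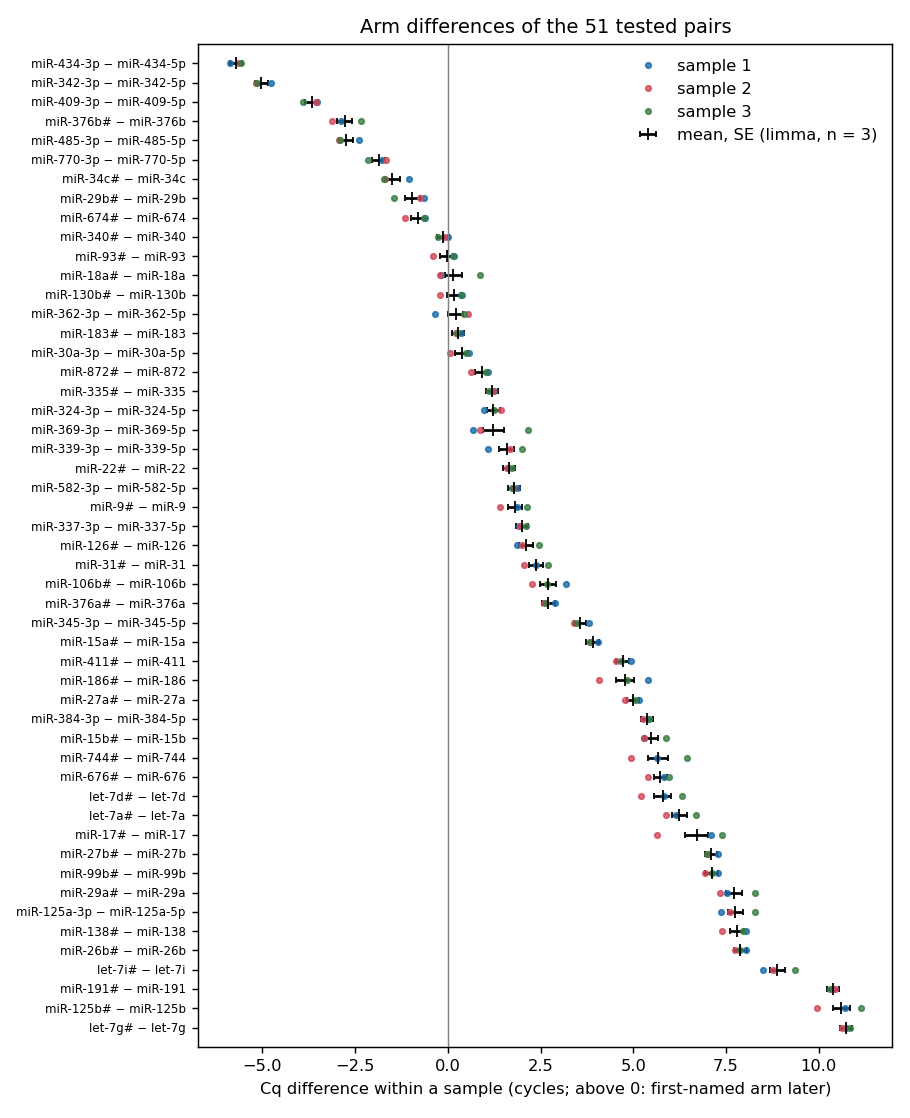
Difference in Cq (cycles) between the arms of each of the 51 tested pairs in the 3 wild-type samples (coloured points), with mean and SE from limma (black); values above 0 mean that the first-named arm is later. The pairs run from −5.71 for miR-434 to 10.7 for let-7g, and most lie above 0.

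The 3 samples differed mainly by a common shift. Over the 303 assays the mean Cq was 23.8, 24.1 and 24.7 in samples 1, 2 and 3, and 240 assays (79.2%) were earliest in sample 1 and latest in sample 3. The shift cannot be told apart from a difference in RNA input. The median SD of an assay was 0.50 cycles, and 0.19 after each sample was scaled to its own mean. Spearman correlations between samples were 0.992 to 0.995 over 303 assays, which share 3 libraries.

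Scaled spread was small at high levels and rose towards the limit. Its median was 0.17 cycles below Cq 20, 0.18 from 20 to 24, 0.23 from 24 to 28 and 0.24 at 28 or above, and 284 of 303 assays had a scaled SD below 0.5. The 10 steadiest assays were miR-217, miR-20a, miR-135a, miR-107, miR-181a, miR-130a, miR-96, miR-340#, miR-374-5p and miR-218, with scaled SDs of 0.009 to 0.050. MiR-181a, for example, was at 17.5, 17.9 and 18.5, which follows the shift of the sample means. The smallest of 303 SDs from 3 samples are low in part by selection.

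The 10 most variable assays were miR-29a#, miR-18a, miR-17#, miR-744#, miR-124#, miR-873, miR-186#, miR-190, miR-701 and miR-369-3p, and 5 of them are starred. MiR-29a# was at 25.9, 26.1 and 28.2, late in sample 3 (scaled SD 0.81). MiR-124# was at 22.9, 22.4 and 22.6 and did not follow the shift (scaled SD 0.59), although it lay at a level where the median scaled SD was 0.18. MiR-18a was at 28.6, 29.1 and 28.4, and so was lowest in sample 3, where most assays were latest.

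Starred arms as a class set sample 2 apart. The 58 starred assays had a mean Cq of 2.20, 1.92 and 2.21 cycles above the sample means in samples 1, 2 and 3. Scaled Cq was lowest in sample 2 for 40 of these 58 (69.0%), against 35 of 193 plain assays (18.1%) and 12 of 52 assays named by arm (23.1%). The cause was not tested. The starred minus plain difference was smallest in sample 2 in 27 of the 36 pairs, as in miR-17# minus miR-17 with 7.10, 5.63 and 7.38 cycles, and the -3p minus -5p difference in 5 of 15. Without sample 2, 45 pairs were called in place of 44.

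The wild-type samples of the first profiling set gave a similar order with clear exceptions. There 178, 228 and 170 assays were detected per sample, and 157 assays were detected in all 6 samples of both sets, at a mean Cq 4.20 cycles later in the first set. Across these 157 the Spearman correlation of mean Cq was 0.79 and Pearson's r was 0.81, against Spearman values of 0.969 to 0.976 within the first set. The assays share libraries within each set. Of the 20 highest ranked assays, 16 were among the first 20 in both sets. MiR-204 was at 20.1, 18.7 and 20.3 in the first set and miR-9 at 20.4, 18.4 and 20.1. The lead of miR-204 did not hold there. MiR-709 had rank 1 in each sample of the first set (18.4, 16.8 and 18.6). By mean Cq over the 157 assays, miR-9 had rank 2 and miR-204 rank 3 in that set. Of the 303 assays, 75 were detected in no wild-type sample of the first set, and the best ranked of them was let-7a. Let-7a# was detected there in all 3 samples (29.5, 27.0 and 29.3), although it came 6.24 cycles after let-7a in the second set. Whether the let-7a wells of the first set were low or had failed was not tested. The share detected in all 3 samples of the first set fell with level, from 97.7% of assays below Cq 20 to 2.63% at 28 or above.

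After each sample was scaled to its mean over the 157 assays, 64 assays (40.8%) were later in all samples of the first set than in any of the second, and 52 (33.1%) earlier in all. Wild-type values of the first set end at Cq 31.97, and its samples ran 4.20 cycles later. The latest assays of the second set could thus enter the 157 only if they were early in the first set for their level. The count of earlier assays is partly set by this filter. The sensory cluster was later in 3 of 3 cases, by a median of 2.49 cycles, and miR-17~92 was earlier in 4 of 5, with a median difference of −2.92 cycles. The other proliferation-linked clusters moved the same way. MiR-106b~25 was earlier in 2 of 3 cases (median −1.49 cycles), and the cluster of miR-106a and miR-363 in 2 of 2 (median −2.81 cycles). The neural list was later in 6 of 9 cases and earlier in 3, with a median of 1.81 cycles later. Values of lists for other cell types stand beside these. The 2 vessel assays were both later, by a median of 3.22 cycles, the white blood cell and microglia list was later in 3 of 4 and earlier in 0, and the pigment epithelium, ciliary body and lens list was later in 1 of 3 with a median of 0.21, a share below that of all 157 assays. Age is given for neither set. The part of tissue makeup, age or set-wise assay performance in these differences was not tested.

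The largest changes of rank among the 157 were those of miR-685, which rose by 121 places in the first set, miR-188-5p by 91, miR-764-5p by 77, miR-29b# by 71 and miR-678 by 58, the last tied with miR-106a and miR-19a. Among late assays, the filter that formed the 157 favours rises over falls. MiR-145 fell by 82 places, miR-150 by 76, miR-29a by 66, miR-129-3p by 62 and miR-375 by 60. MiR-145, of vessel smooth muscle, was at 20.2, 21.0 and 21.3 in the second set and at 29.3, 27.8 and 29.9 in the first. MiR-685 was at 25.04, 25.3 and 25.8 in the second set and at 24.1, 22.4 and 24.1 in the first, earlier despite the general delay there.

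**Figure D5:**
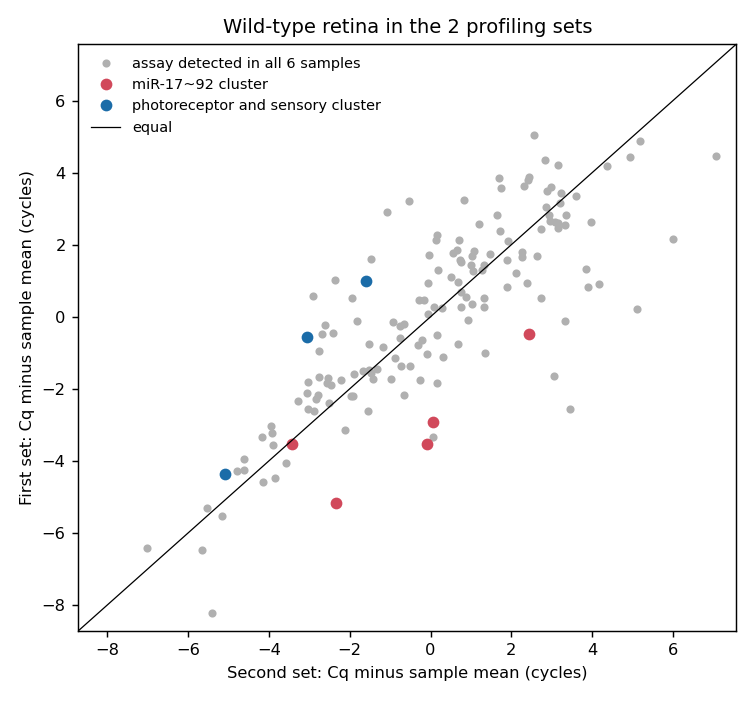
Mean Cq in wild-type samples of the first profiling set (vertical axis) against the second (horizontal axis), each in cycles relative to the sample mean over the 157 assays detected in all 6 samples; the line marks equal values. The miR-17~92 members (red) lie on or below the line and the sensory cluster (blue) above it.

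Arm differences kept their sign between the sets in most pairs that could be compared. Of the 51 pairs, 23 had a value in at least 1 wild-type sample of the first set, and 19 of them had the same sign there. Pairs with a single arm detected there are not counted, and these went both ways. Let-7a# and miR-22# were detected without the plain arm, against the second set. Let-7i and miR-191 were detected without the starred arm, as the second set's order would have it. In 10 pairs both arms were detected in all 6 samples, and the arm difference differed between the sets in 4 of them (40%; limma, Benjamini-Hochberg adjusted p under 0.05). MiR-183# minus miR-183 was 0.35, 0.21 and 0.25 cycles in the second set and −1.12, −1.87 and −1.84 in the first, so the starred arm was the earlier in all samples of the first set and in none of the second (difference 1.88 ± 0.25, SE, limma adjusted p = 3.23e-08). For miR-384 the difference was 5.36 and 5.44 cycles and for miR-9 1.81 and 2.004, and neither passed the test. Limma estimated the same SE, 0.25 cycles, for all 10 pairs, so a pair that truly varied more would be called too easily.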

How the data were processed

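The deposited table holds Cq values (treated as a score, a reversed log scale) that the submitters name as not normalized. Per the labels, RNA was purified with a microRNeasy kit and reverse transcribed with 522 stem-loop primers. The threshold, baseline and software are not given in the sources used here. Groups came from the sample descriptions. Detection meant Cq 32 or lower. Assays were ranked by mean unscaled Cq, and spread was taken after subtracting each sample's mean over the assays detected in all 3 samples. Relative quantity was 2 to the power of minus Cq. Within-sample arm differences were tested against 0, and between the profiling sets, with limma 3.58.1 in R 4.3.3 (lmFit and eBayes, two-sided, Benjamini-Hochberg over all pairs, threshold 0.05); the scripts were tested on simulated data. No label says that samples came from separate animals, so p-values measure only the spread between these samples, whose number limits the precision. Sequences and positions are from RefSeq (GRCm38.p6).

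Named were the 20 lowest mean Cq, the 10 largest called arm differences each way, starred arms of lower Cq, the 10 largest and smallest spreads, the 10 largest rank changes and list members. Members and lists were chosen with earlier results of these data known. Alternatives changed the detection limit, scaling, amplification base, estimation, pair definition and samples.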

Additional observations from a re-analysis of the deposited data

Results flagged for a closer look

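Arm differences of 4 pairs differed between the 2 sets of wild-type samples by a test of the difference itself (limma on 10 pairs, 3 samples a set). For miR-183# minus miR-183 the second set exceeded the first by 1.88 cycles. The other 3 were lower in the second set. MiR-93# minus miR-93 averaged −0.03 in the second set and 1.30 in the first, a difference of −1.33 (limma adjusted p = 1.94e-05). MiR-335# minus miR-335, both arms of an intronic miRNA of Mest, averaged 1.20 and 2.33, a difference of −1.14 (limma adjusted p = 1.49e-04). MiR-340# minus miR-340 averaged −0.13 and 0.72, a difference of −0.85 (limma adjusted p = 0.00375), and without sample 2 of the first set it was −0.66 (limma adjusted p = 0.152).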

How the results depend on the processing

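With other limits or fewer samples required, 288 to 326 assays were detected against 303, and leaving out 1 replicate gave 304 to 313. Of the 20 highest ranked assays, 18 to 20 stayed among the first 20 under scaling, the median or without 1 replicate. The share of the 10 highest ranked assays moved with the assumed amplification, from 53.4% at base 2 to 48.9% at base 1.9 and 44.04% at base 1.8. The median spread of 0.19 cycles was 0.50 without scaling, and 0.37 as a range in place of the SD. Entering undetected arms at Cq 32, which adds pairs, raised the called arm pairs from 44 to 76; any Cq gave 48, and pairs named in other ways, added after seeing the data, 56. Leaving out 1 replicate gave 44 to 45 arm calls and 3 to 5 set differences. With the replicate block, 4 set differences were called, as without it; same-numbered samples did not deviate together (correlations −0.26, 0.07 and −0.17), so the numbers share no known pairing. Of 245 values for named pairs under alternatives, 0 called differences changed sign, 5 values of differences that were not called did (miR-93# between arms; miR-9#, miR-384 and miR-30a, the last in 2 cases, between sets), 1 lost its call (miR-340#, given above) and 3 gained one: miR-30a without replicate 2 (0.53 cycles, limma adjusted p = 0.0449) and miR-130b between sets without replicate 2 of the second set or 3 of the first (0.73 and 0.63 cycles). Levels under the detection limit are not measured here.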

Other observations

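Assays that share a miRNA name did not always read alike. Of 9 such pairs, miR-124a, miR-133a, miR-449b and miR-488# each had one assay detected in all 3 samples and another undetermined in all. The 2 assays named miR-378, from the Ppargc1b gene, were 4.45 ± 0.15 cycles apart (SD, n = 3), and those named miR-325 0.61 ± 0.52 cycles. For miR-455 the assay of number 2455 differed from that of number 1280 by −2.45 ± 0.22 cycles. Whether they target the same sequence is not given. In sample 3 some wells were empty despite clear signals elsewhere: 3 assays with a Cq below 28 in both other samples (miR-154, miR-28# and an assay of miR-467a, number 1826, the last at 25.6 and 25.3) were undetermined there. Whether these wells were low or had failed was not tested. MiR-680 was detected in all 3 wild-type samples of the first set (28.9, 27.2 and 28.5) and undetermined in the 3 of the second.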
